A study of Mus musculus with 12 samples.

Results

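The suppressors of cytokine signalling (SOCS) family was described in mouse HoxB8-ER progenitor cells that carried 1, both or neither of the mutant genes CSF3R_T618I and CEBPA_V314VW. The members are the 8 genes that belong to the family by name, Cish and Socs1 to Socs7, out of 19505 named genes on the array, and all 8 were found, each with 1 probe set. HoxB8-ER cells are a granulocyte-monocyte progenitor line, kept immature by an estrogen-dependent HoxB8 protein, that starts to differentiate along the neutrophil lineage when estrogen is removed. Every group carried a pair of retroviral vectors, 1 marked with GFP and 1 with mCherry, in which the viral promoter drives the inserted gene, and cells that showed both colours were sorted, left for a week and then kept without estrogen for 24 hours in medium with stem cell factor. The groups were empty vector (both vectors empty), CSF3R_T618I, CEBPA_V314VW, and both mutant genes (CSF3R_T618I+CEBPA_V314VW), with 3 arrays each. CSF3R_T618I is an activated form of the receptor for granulocyte colony-stimulating factor, and CEBPA_V314VW changes the end of C/EBP alpha, a transcription factor of granulocyte development, through which it binds DNA and pairs. All values come from this single line and from forced expression, and mean RNA over a cell population, so that fewer cells of a type and less RNA per cell cannot be told apart.

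SOCS proteins are feedback inhibitors of cytokine receptors that signal through JAK kinases and STAT transcription factors. Active STATs switch on Socs genes, and the proteins then bind the receptor or kinase with an SH2 domain and recruit a Cullin ubiquitin ligase through the SOCS box. Cish and Socs2 are classical targets of STAT5. Socs3 is a classical target of STAT3 and restrains the granulocyte colony-stimulating factor receptor and gp130 in neutrophil precursors, whereas Socs1 is induced most strongly by interferons.

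Levels are log2 values made by RMA, a method that corrects for background, normalises between arrays and combines the probes of a set, so that a difference of 1 is a 2-fold change and levels of different genes are not comparable. The median gene level ran from 6.59 to 6.76 over the arrays, and r between arrays of a group from 0.987 to 0.995. The progenitor markers Mpo and Elane were measured at group means between 12.15 and 13.88, so the markers of the labelled cell type were present. Array C of CSF3R_T618I and array C of both mutations stood apart from their groups, with array quality weights of 0.325 and 0.486 against weights up to 3.73, so calls that rest on them are given with and without them. A member was called changed when the adjusted p of limma, fitted over all 22206 gene probe sets, was below 0.05. The labels call the arrays of a group biological replicates but do not say that they came from separate transductions, and p-values measure only the spread between them.

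Of the 8 members, 4 passed the test in at least 1 comparison (Cish, Socs1, Socs2 and Socs3) and 4 passed it in none (Socs4 to Socs7). In CSF3R_T618I cells, Cish, Socs2 and Socs3 rose against empty vector and no member fell, 3 of 8 where 6.37% of all probe sets were called and 3.74% rose. In CEBPA_V314VW cells, Socs2 alone rose and no member fell, 1 of 8 beside 1.97% of all probe sets called and 1.02% that rose. With both mutations, Socs1, Socs2 and Socs3 rose against empty vector, 3 of 8 beside 5.45% of all probe sets called and 3.16% that rose. The median change over the 8 members was 0.31, -0.01 and 0.23 in these 3 comparisons, and over all probe sets it was -0.01, -0.00 and -0.03. All 3 comparisons use the same empty vector arrays.

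Groups whose arrays did not overlap were common, so the separations described for single members are read against that share. Between CSF3R_T618I and empty vector, the groups did not overlap for 4 of 8 members (Cish, Socs1, Socs2 and Socs3) and for 24.1% of all probe sets. Between CEBPA_V314VW and empty vector they did not overlap for Cish and Socs2, beside 16.7% of all probe sets, and between both mutations and empty vector for Cish, Socs1, Socs2 and Socs3, beside 23.1%. With both mutations against CSF3R_T618I, against CEBPA_V314VW, and between the single mutations, Cish, Socs2 and Socs3 did not overlap, beside 13.7%, 22.5% and 25.9% of all probe sets.

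**Figure D1:**
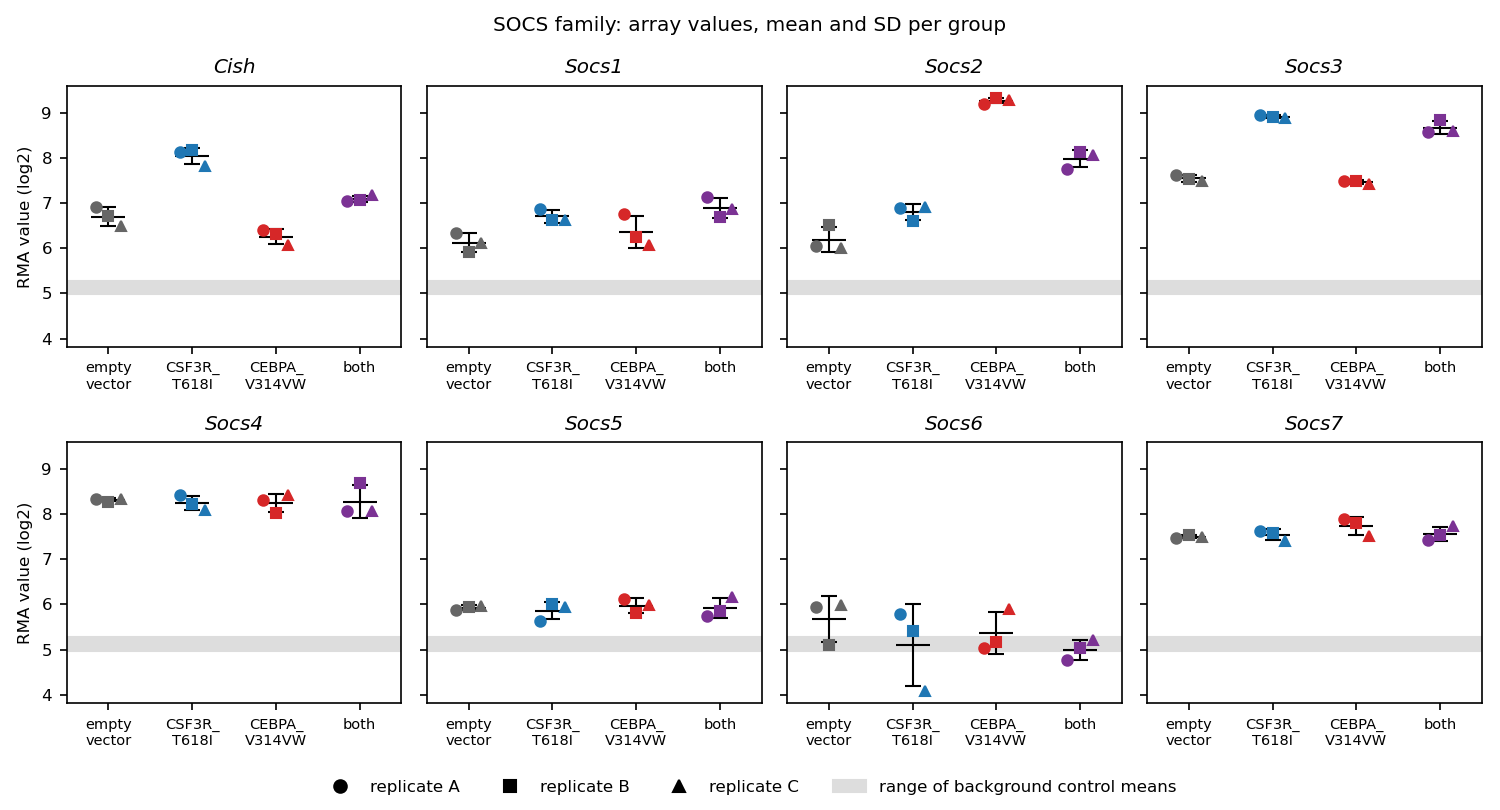
Level of each SOCS family member (vertical axis, log2 RMA value) on every array of the 4 groups, with horizontal bars for the group mean and whiskers for the SD of 3 arrays. The grey band is the range of the mean level of the background control probe sets, from 4.98 to 5.27, and Socs6 is the member whose arrays reach into it.

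Socs2 was the member that responded most to CEBPA_V314VW and the only one whose response to one mutation passed the test of a difference by the presence of the other. Its protein binds phosphorylated receptors, is best known from mice as the brake on growth hormone signalling, and is also made in immature blood cells. Empty vector arrays measured Socs2 at 6.05, 6.50 and 6.00. CSF3R_T618I arrays read 6.88, 6.60 and 6.91. CEBPA_V314VW arrays read 9.20, 9.31 and 9.28. These 3 groups did not overlap, and CEBPA_V314VW stood far above the others. Arrays with both mutations read 7.76, 8.12 and 8.06, in the gap between either mutation alone. The order of the group means was thus empty vector, CSF3R_T618I, both mutations and CEBPA_V314VW. Each neighbour in that order passed the test in the fit over all arrays, but the first step was not firm, as given below. The steps were 0.61 ± 0.15 (SE, n = 3 arrays per group, limma adjusted p = 0.0285), 1.18 ± 0.15 (adjusted p = 0.00114) and 1.28 ± 0.15 (adjusted p = 0.000115).

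The CSF3R_T618I effect on Socs2 depended on the background, with estimates of opposite sign. Without CEBPA_V314VW, CSF3R_T618I raised Socs2 by 1.53-fold, a rise that was not firm. In cells with CEBPA_V314VW it lowered Socs2 by 2.43-fold, from a mean of 9.26 ± 0.06 (SD, n = 3) to 7.98 ± 0.19 (SD, n = 3). The difference between these effects, the interaction, was -1.90 ± 0.21 on the log2 scale (95% interval -2.36 to -1.43, limma adjusted p = 0.00178). Socs2 was the only member of the 8 past this test, which 0.324% of all probe sets passed. Read from the other side, CEBPA_V314VW raised Socs2 8.46-fold in cells without CSF3R_T618I and 2.27-fold in cells with it.

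The falls and rises of Socs2 were not equally firm. The interaction stayed past the threshold in every alternative that could give it, with adjusted p between 0.000679 and 0.0115. The small rise with CSF3R_T618I alone did not: its adjusted p was 0.13 without empty vector array A, 0.122 without empty vector array C, 0.0923 without CSF3R_T618I array A, 0.0967 without CSF3R_T618I array C and 0.105 without both C arrays that stood apart.

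**Figure D2:**
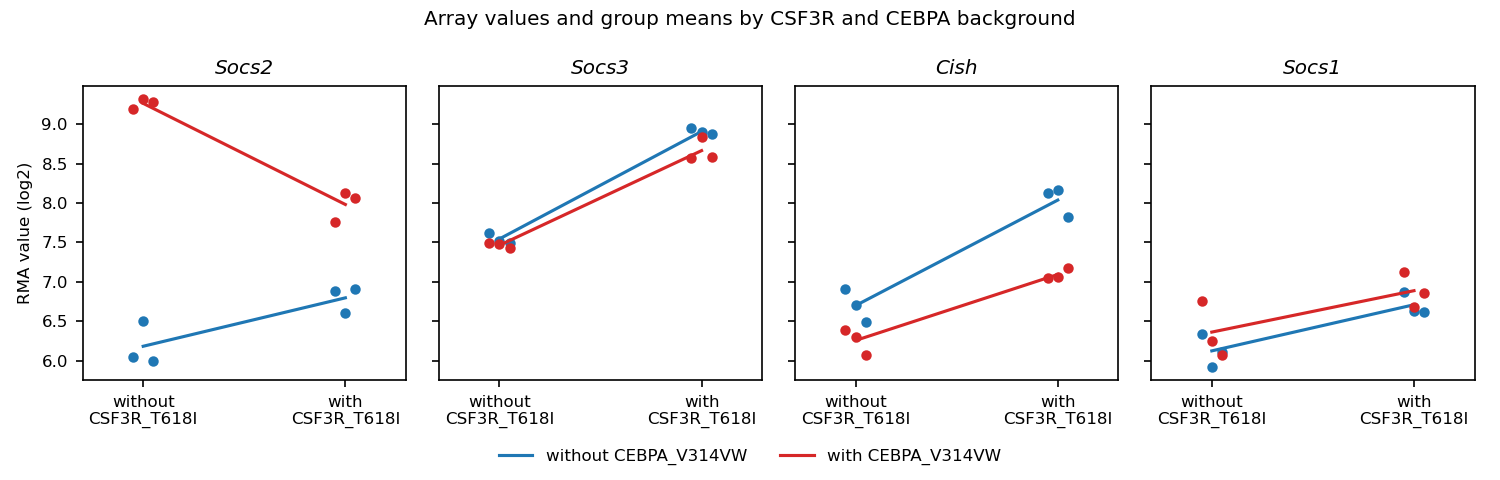
Levels of Socs2, Socs3, Cish and Socs1 (vertical axis, log2 RMA value) without and with CSF3R_T618I, in cells without (blue) and with (red) CEBPA_V314VW; points are arrays and lines join the means of 3 arrays. The Socs2 lines run in opposite directions, from 6.18 up to 6.80 and from 9.26 down to 7.98, while both lines of each other gene rise.

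Socs3 followed CSF3R_T618I in both backgrounds. Its protein binds the activated granulocyte colony-stimulating factor receptor and blocks the JAK kinase attached to it. Without CSF3R_T618I, Socs3 stood at 7.62, 7.52 and 7.49 on the empty vector arrays and at 7.49, 7.48 and 7.43 on the CEBPA_V314VW arrays. With CSF3R_T618I it stood at 8.95, 8.90 and 8.87. With both mutations it stood at 8.58, 8.83 and 8.59. Every array with CSF3R_T618I was thus above every array without it. The rise was 2.57-fold without CEBPA_V314VW (1.36 ± 0.10, limma adjusted p = 1.99e-06) and 2.30-fold with it (1.20 ± 0.10, adjusted p = 5.86e-06). CEBPA_V314VW changed Socs3 by -0.08 (95% interval -0.30 to 0.14, adjusted p = 0.951) without CSF3R_T618I and by -0.24 (95% interval -0.46 to -0.03, adjusted p = 0.411) with it, and neither passed the test. The interaction of Socs3 was -0.16 ± 0.14 (95% interval -0.47 to 0.15), an interval that does not reach the value of Socs2.

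Cish also rose with CSF3R_T618I, but was lower when CEBPA_V314VW was present as well. CIS, its protein, docks at receptor sites that STAT5 uses. Empty vector arrays read 6.91, 6.70 and 6.49. CSF3R_T618I arrays read 8.12, 8.17 and 7.83. CEBPA_V314VW arrays read 6.39, 6.31 and 6.08, below all empty vector arrays. Arrays with both mutations read 7.05, 7.06 and 7.17, above all empty vector arrays but below all CSF3R_T618I arrays. The rise with CSF3R_T618I was 2.53-fold without CEBPA_V314VW (1.34 ± 0.14, limma adjusted p = 3.62e-05) and 1.79-fold with it (0.84 ± 0.14, adjusted p = 0.00179). Adding CEBPA_V314VW to CSF3R_T618I lowered Cish 1.92-fold (-0.94 ± 0.14, adjusted p = 0.00288). The fall of 0.44 ± 0.14 with CEBPA_V314VW alone had adjusted p = 0.193, and the level with both mutations did not pass the test against empty vector (0.39 ± 0.14, adjusted p = 0.149). The interaction was -0.50 ± 0.19 (95% interval -0.92 to -0.08) and missed the threshold over all probe sets with adjusted p = 0.704.

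Cish, Socs2 and Socs3 were therefore the members called when both mutations were set against a single one. Against CSF3R_T618I cells, Socs2 was higher and Cish lower with both mutations, beside 1.6% of all probe sets called. Against CEBPA_V314VW cells, Cish and Socs3 were higher and Socs2 lower, beside 6.65% of all probe sets. Between the single mutations, CSF3R_T618I cells had more Cish and Socs3 and less Socs2 than CEBPA_V314VW cells, beside 10.7% of all probe sets, and the Socs2 difference was 5.52-fold (limma adjusted p = 1.99e-07).

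The start regions of Cish and Socs3 are shown because these genes rose past the threshold with CSF3R_T618I and are known STAT targets. That of Socs1 is shown because Socs1 was called with both mutations against empty vector. Socs2 met both conditions, but no window was found for it. The sequences are from RefSeq on mouse build GRCm38.p6, and a window was found for 4 of the 8 members, Cish, Socs1, Socs3 and Socs4. Capitals mark the palindromic STAT motif TTCNNNGAA, which reads alike on both strands. The Cish region is chr9:107296409-107296688 on the plus strand, the Socs3 region chr11:117969367-117969616 on the minus strand and the Socs1 region chr16:10785537-10785786 on the minus strand, each 5′ to 3′ in the direction of the gene.
Cish: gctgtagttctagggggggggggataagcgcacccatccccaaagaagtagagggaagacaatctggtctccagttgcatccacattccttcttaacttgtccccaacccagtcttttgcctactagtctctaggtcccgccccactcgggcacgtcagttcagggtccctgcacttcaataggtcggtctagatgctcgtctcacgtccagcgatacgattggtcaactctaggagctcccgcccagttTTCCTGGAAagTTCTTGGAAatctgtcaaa
Socs3: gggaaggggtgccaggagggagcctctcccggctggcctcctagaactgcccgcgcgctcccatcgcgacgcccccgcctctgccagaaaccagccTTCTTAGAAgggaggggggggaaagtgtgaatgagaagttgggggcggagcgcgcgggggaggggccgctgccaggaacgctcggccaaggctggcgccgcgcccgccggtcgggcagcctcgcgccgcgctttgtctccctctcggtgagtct
Socs1: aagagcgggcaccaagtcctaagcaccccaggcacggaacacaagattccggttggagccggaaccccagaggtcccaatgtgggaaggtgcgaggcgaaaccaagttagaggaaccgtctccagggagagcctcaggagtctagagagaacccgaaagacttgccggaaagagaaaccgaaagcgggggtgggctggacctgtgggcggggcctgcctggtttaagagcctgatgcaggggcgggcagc
The Cish window held the motif 2 times, as TTCCTGGAA at bases 1 to 9 and TTCTTGGAA at bases 12 to 20 counted from the first transcribed base. The Socs3 window held it 1 time, as TTCTTAGAA at bases -154 to -146 before that base. The windows of Socs1 and Socs4 held no match. Of all 32851 windows of up to 300 bases, 8.3% held this motif. The longer form of the motif, with 4 free bases between the same half-sites, was in 6.95% of all windows and in none of the 4 members' windows, and a match is a description of letters rather than a site.

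Socs1 passed the test with both mutations against empty vector, but not with both mutations against CSF3R_T618I alone. Its protein blocks JAK kinases directly and limits interferon signalling. Empty vector arrays read 6.34, 5.93 and 6.11, and arrays with both mutations read 7.12, 6.68 and 6.86, without overlap. The rise was 0.76 ± 0.18 on the log2 scale (limma adjusted p = 0.0248). It missed the threshold without empty vector array B (adjusted p = 0.12), without empty vector array C (0.0817), without array A of both mutations (0.118), without array C of both mutations (0.0626) and without both C arrays that stood apart (0.0696). CSF3R_T618I arrays read 6.88, 6.63 and 6.62, and CEBPA_V314VW arrays read 6.76, 6.25 and 6.07. The change with CSF3R_T618I was 0.59 ± 0.18 (adjusted p = 0.0855) without CEBPA_V314VW and 0.53 ± 0.18 (adjusted p = 0.126) with it, so neither passed, and the CEBPA_V314VW group overlapped empty vector. In CEBPA_V314VW cells this rests on array A, without which the change had adjusted p = 0.0256. Both mutations against CSF3R_T618I alone gave 0.18 ± 0.18 (limma adjusted p = 0.841), with overlapping arrays. The interaction of Socs1 was -0.06 ± 0.26 and did not pass the test. The rise of Socs1 was thus not shown to need both mutations.

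The other members passed no test. Socs4 and Socs5, whose proteins act on the epidermal growth factor receptor, had group means between 8.24 and 8.32 and between 5.87 and 5.97. Socs7, which binds signalling adaptors, had group means between 7.50 and 7.74. The 95% intervals of the CSF3R_T618I effect against empty vector were -0.43 to 0.29 for Socs4, -0.37 to 0.24 for Socs5 and -0.23 to 0.31 for Socs7, so a 2-fold change lay outside each of them. The largest difference among the pairwise comparisons of these 3 genes was the 0.23 of Socs7 with CEBPA_V314VW (95% interval -0.03 to 0.50, limma adjusted p = 0.638). Socs6, which binds KIT, ranged from 4.08 to 5.99 over the arrays and was above its own array's background mean on 3, 2, 2 and 1 of 3 arrays of empty vector, CSF3R_T618I, CEBPA_V314VW and both mutations. Its interval for CSF3R_T618I against empty vector was -1.42 to 0.26, wide enough to hold a 2-fold fall, and a difference was not detectable at this signal.

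**Figure D3:**
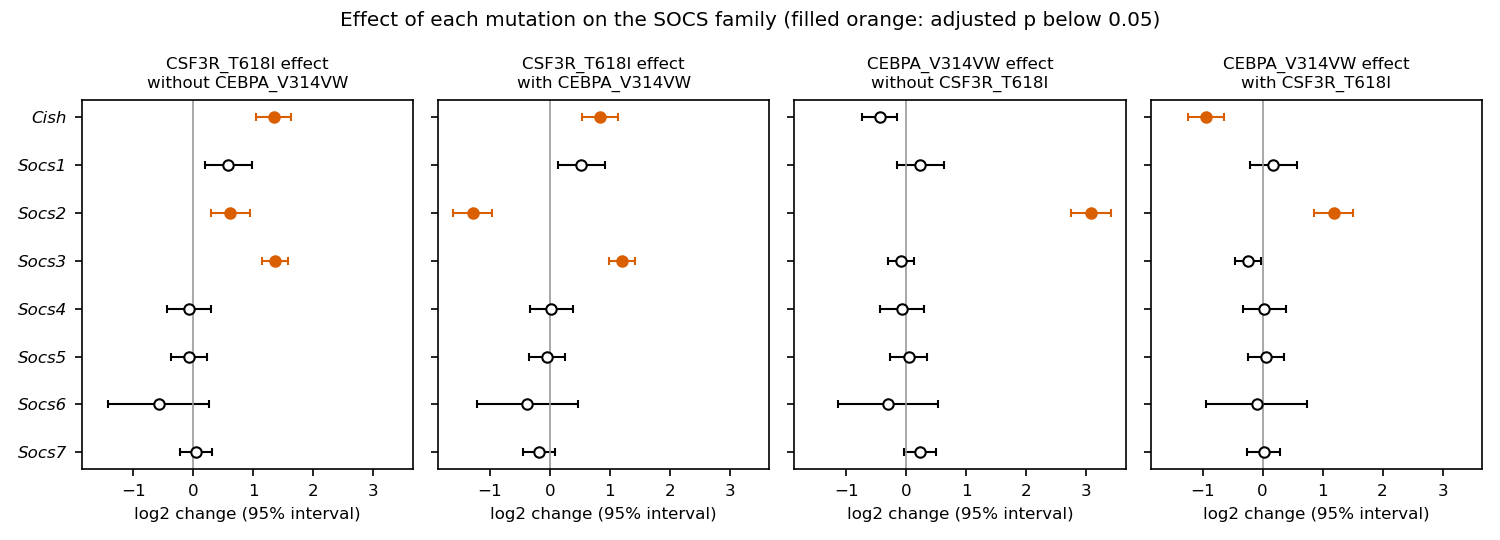
Change of each member (horizontal axis, log2 scale, point with 95% interval) for each mutation without and with the other one, from the fit over all 12 arrays; filled orange points have an adjusted p below 0.05. Socs2 lies at 3.08 for CEBPA_V314VW and on both sides of 0 for CSF3R_T618I, and Socs3 lies near 0 for CEBPA_V314VW.

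To ask whether members responded unequally, the difference of 2 members on each array was compared between arrays with and without a mutation, within the levels of the other mutation. All 28 pairs were tested for both mutations with an exact two-sided permutation test over 400 arrangements, whose smallest p is 0.005, and adjusted over the 56 tests. All pairs were run because Socs2 against Socs3 and Cish was proposed with earlier results of these data known. Unequal responses were found for 16 of 28 pairs under CSF3R_T618I and for 13 of 28 under CEBPA_V314VW. The pairs share members, so these counts are not independent results. Every passing pair under CSF3R_T618I held Cish, Socs1 or Socs3. Under CEBPA_V314VW, every passing pair but Socs3 with Socs7 held Socs2 or Cish. Pairs of other genes were not tested. Averaged over both backgrounds, CEBPA_V314VW changed Socs2 by 2.13, Socs3 by -0.16 and Cish by -0.69. Socs2 differed in this response from each of the other 7 members, by 1.92 (Socs1) to 2.82 (Cish), with adjusted permutation p = 0.0112 in each case. The response of Cish lay below that of Socs3 by 0.53 (exact permutation, adjusted p = 0.0112).

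Averaged over both backgrounds, CSF3R_T618I changed Socs3 by 1.28, Cish by 1.09, Socs1 by 0.56 and Socs2 by -0.33. Socs2 differed from Socs3 by -1.62 and from Cish by 1.42 in size, both with exact permutation p = 0.005 and adjusted p = 0.0112. For Socs2 this average joins a small rise, which was not firm, and a fall. Cish and Socs3 were 0.19 apart, which did not pass the test (exact permutation, adjusted p = 0.149), and Socs1 and Socs2 were 0.89 apart (adjusted p = 0.108). The response of Socs1 lay below that of Cish (exact permutation, adjusted p = 0.03) and of Socs3 (0.0112). It lay above that of Socs4 (0.0483), Socs5 (0.0112), Socs6 (0.03) and Socs7 (0.0112).

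The machinery that SOCS proteins share was read against the shares of all probe sets called against empty vector (6.37% in CSF3R_T618I cells, 1.97% in CEBPA_V314VW cells and 5.45% in cells with both mutations), at which lists of this size hold few calls or none. Of 8 ligase partners, such as the Elongins and Cullins, none was called with CSF3R_T618I or CEBPA_V314VW alone, and Rnf7 was the only one called with both mutations against empty vector. None of 28 other SOCS box genes was called against empty vector in any of these 3 groups. Of 15 other inhibitors of JAK and STAT signalling, 3 rose with CSF3R_T618I and none fell. These were Ptpn1 (0.71 ± 0.12, limma adjusted p = 0.00196) and Ptpn6 (0.54 ± 0.10, adjusted p = 0.00554), phosphatases that act on JAK kinases and receptors, and Ptprc. Sla, an adaptor that dampens receptor signalling, fell by 0.66 with CEBPA_V314VW (adjusted p = 0.00726) as the only inhibitor called there.

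Of 9 JAK and STAT genes, 3 rose with CSF3R_T618I and none was called with CEBPA_V314VW, beside 6.37% and 1.97% of all probe sets called. Jak2, the kinase of the granulocyte colony-stimulating factor receptor, rose by 0.76 ± 0.15 (limma adjusted p = 0.00599), Stat3 by 0.56 ± 0.10 (adjusted p = 0.00414) and Stat6 by 0.47 ± 0.10 (adjusted p = 0.0165). Of 21 receptor genes whose ligands induce SOCS genes, 7 rose and 1 fell with CSF3R_T618I, and 2 rose and 2 fell with CEBPA_V314VW, beside the same shares. The mouse Csf3r probe set, which need not see the human transgene, read 11.39 ± 0.09 in empty vector cells, 12.09 ± 0.07 in CSF3R_T618I cells, 10.92 ± 0.03 in CEBPA_V314VW cells and 11.72 ± 0.07 in cells with both (SD, n = 3). The mouse Cebpa probe set, with the same limit, rose by 0.98 ± 0.12 with CEBPA_V314VW (limma adjusted p = 0.000383) and by 1.18 ± 0.12 with both mutations (adjusted p = 2.52e-05) against empty vector.

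Il6st, which encodes gp130, the shared receptor chain of the interleukin 6 family and a docking site of SOCS3, was higher wherever CEBPA_V314VW was present. Its group means were 7.42 ± 0.05 with empty vector and 7.93 ± 0.02 with CSF3R_T618I (SD, n = 3). With CEBPA_V314VW alone the mean was 9.35 ± 0.09, and with both mutations 9.47 ± 0.06 (SD, n = 3). The rise with CEBPA_V314VW was 1.93 ± 0.09 (limma adjusted p = 2.08e-07), and in cells with CSF3R_T618I it was 1.54 ± 0.09 (adjusted p = 3.04e-06). Kit, the receptor of the stem cell factor in the medium, fell by 1.67 ± 0.10 with CSF3R_T618I (adjusted p = 4.6e-07) and by 1.57 ± 0.10 when CSF3R_T618I was added to CEBPA_V314VW (adjusted p = 7.32e-07).

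Other target genes of the same STATs were set beside the members. Over all probe sets, 6.37% were called with CSF3R_T618I against empty vector and 6.65% when it was added to CEBPA_V314VW. Of 18 other STAT3 targets, 12 rose and none fell with CSF3R_T618I, with a median change of 0.62, and 11 rose and none fell when it was added to CEBPA_V314VW, with a median of 0.57. Il4ra, the interleukin 4 receptor chain, rose by 2.47 and 2.27 in these comparisons, and Bcl3, a nuclear partner of NF-kappa B, by 1.69 and 2.13. Of 13 other STAT5 targets, 5 rose and 1 fell in the first comparison and 3 rose and 1 fell in the second. Osm, a cytokine of the interleukin 6 family, rose by 1.74 ± 0.20 (limma adjusted p = 0.000115) and by 0.81 ± 0.20 (adjusted p = 0.0301). Ccnd2, a cell cycle cyclin, fell by 1.84 ± 0.13 and by 1.33 ± 0.13.

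**Figure D4:**
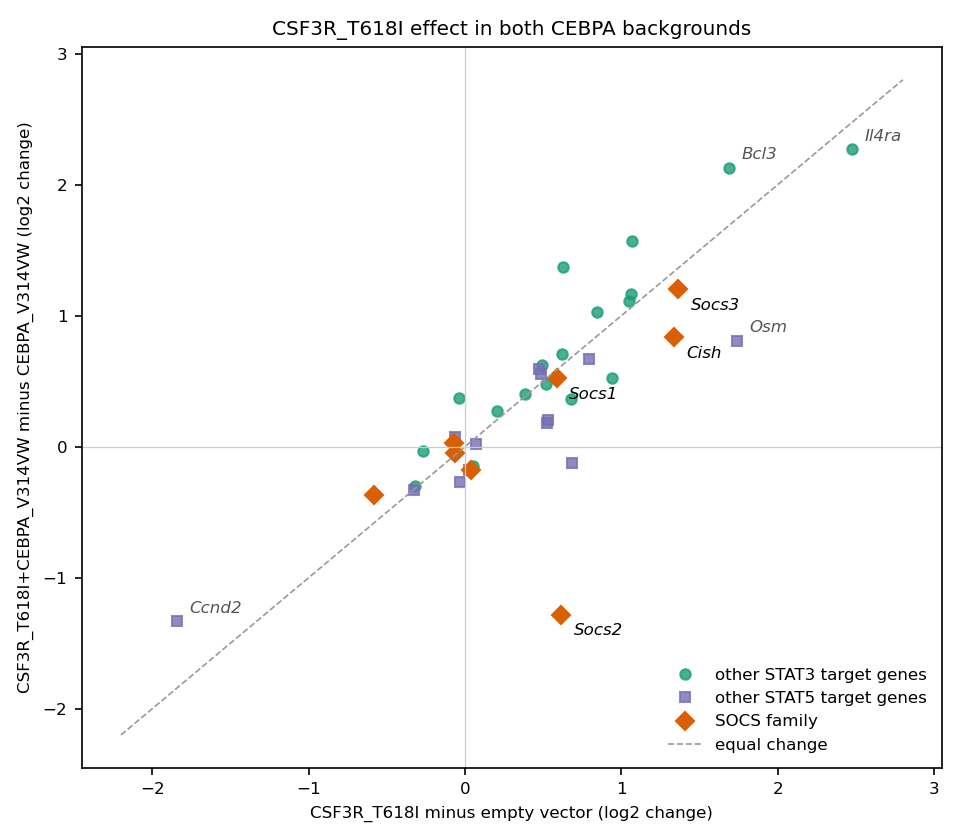
Change with CSF3R_T618I in cells with CEBPA_V314VW (vertical axis, log2) against the change in cells without it (horizontal axis, log2), for the 8 SOCS members and the other STAT3 and STAT5 targets; the dashed line marks equal change. The comparisons share no array. Socs2 lies at 0.61 and -1.28, apart from the line, and Socs3 at 1.36 and 1.20, close to it.

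The genes whose levels ran most like each called member over the 12 arrays were taken from 13795 named genes above background. They share the 4 group means with the member, and r is given as a description. Dhrs3, a retinaldehyde reductase, was closest to Socs2 (r = 0.97), followed by Vit, Ston2, Itm2a and Dhrs1. Il1r2, a decoy receptor for interleukin 1, was closest to Socs3 (r = 0.99), followed by Serpinb9e, Csf1, Il4ra and Steap4. Qsox1 was closest to Cish (r = 0.98) and Garnl3 to Socs1 (r = 0.90).

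Markers of differentiation and of other lineages were counted beside these results. Over all probe sets, 6.37% were called with CSF3R_T618I, 1.97% with CEBPA_V314VW and 5.45% with both mutations, all against empty vector. Of 13 late neutrophil genes measured, 10 rose and none fell with CSF3R_T618I, 1 rose and 9 fell with CEBPA_V314VW, and 9 rose and 3 fell with both mutations, all against empty vector. The array means of the list ran from 8.12 to 8.32 in empty vector cells, 10.48 to 10.69 in CSF3R_T618I cells, 7.24 to 7.58 in CEBPA_V314VW cells and 9.67 to 9.85 in cells with both mutations. Groups with CSF3R_T618I had more Socs3 and higher late neutrophil markers than groups without it. CEBPA_V314VW went with lower late markers, but its changes of Socs3 did not pass the test. When it was added to CSF3R_T618I, 8 of the 13 late genes fell and 1 rose, beside 1.6% of all probe sets called. The group means of Cish kept the order of the late markers, but only the Cish step from both mutations to CSF3R_T618I passed the test. For Socs2 the groups did not keep that order. The group with most Socs2 had the lowest late markers. Empty vector cells, with the least Socs2 (mean 6.18), had lower late markers than cells with both mutations, whose Socs2 was higher (mean 7.98). The array means of 12 progenitor and early neutrophil genes ran from 11.99 to 12.01 with empty vector and from 11.68 to 11.76 in the other groups. These 12 genes include Cebpa and Csf3r, the mouse forms of the transduced genes. With CSF3R_T618I, 1 rose (Csf3r) and 2 fell. With CEBPA_V314VW, 1 rose (Cebpa) and 5 fell, Csf3r among them. With both mutations, 1 rose (Cebpa) and 3 fell. Of markers of other lineages, 4 of 12 monocyte, macrophage and dendritic genes rose and 1 fell with CSF3R_T618I, and 1 rose and 1 fell with CEBPA_V314VW. Of 13 eosinophil, basophil and mast cell genes, 2 rose and 2 fell with CSF3R_T618I, and 1 rose and 1 fell with CEBPA_V314VW. Of 8 erythroid and megakaryocyte genes 1 fell, and of 9 lymphoid genes 1 rose, with CSF3R_T618I, and none of either list was called with CEBPA_V314VW. In lists of this size, 1 call is near the share of all probe sets. The part of these markers in the SOCS results was not tested.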

How the data were processed

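Total RNA of 12 samples (100 ng each) was measured on Clariom S Mouse arrays after labelling by the WT Plus protocol. The deposited log2 values were made by the authors with RMA in Affymetrix Expression Console, with settings and annotation build not given in the sources used here. No scaling was added. Of 28846 probe sets, 6640 controls were left out. Gene symbols were matched through the gene number in the identifier to a RefSeq table (GRCm38.p6), and 19572 probe sets had 1 symbol. The linear model, made in limma 3.58.1 under R 4.3.3, took all 12 arrays together with 1 mean for each group and moderated variances (prior degrees of freedom 4.51). The 6 pairwise contrasts and the interaction were tested, with Benjamini-Hochberg adjustment over 22206 gene probe sets. The fit and the permutation test were tested on simulated data.

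The members and gene lists were chosen with earlier results of these data known. Besides the members, the text names Csf3r and Cebpa, the list genes with the largest changes past the threshold, and for each called member up to 5 genes of highest Pearson r. Other genes (Mpo, Elane, Rnf7, Ptprc, Mmp8) are named as markers or as the remaining genes of a small count, chosen after their values were seen. The number of arrays limits the precision.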

Additional observations from a re-analysis of the deposited data

Results flagged for a closer look

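The CSF3R_T618I effect on Socs2 differed between cells with and without CEBPA_V314VW by -1.90 on the log2 scale (limma interaction, adjusted p = 0.00178). The same test was past the threshold for 3 of the genes whose levels ran most like a member. The value was -0.71 for Qsox1 (limma interaction, adjusted p = 0.0487), which ran with Cish. It was -1.17 for Vit (adjusted p = 0.0419) and -1.08 for Itm2a (adjusted p = 0.0218), which ran with Socs2.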

How the results depend on the processing

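Of 816 member values recomputed under the alternatives, 796 kept their side of the threshold, 16 lost the threshold and 4 gained it. Among the 796, 59 values of Socs1, Socs4, Socs5, Socs6 and Socs7 that passed no threshold in either fit changed sign, and no called value did. The methods' t-test, an unmoderated test of the compared groups alone, called 0 members between both mutations and CSF3R_T618I, where limma called 2 and where 3 had an unadjusted p below 0.05. It also lost Cish between both mutations and CEBPA_V314VW (adjusted p = 0.0507), Socs2 with CSF3R_T618I (0.249) and Socs1 with both mutations (0.166) against empty vector. Over all probe sets, calls for CSF3R_T618I against empty vector numbered 1415, and 681 by the methods' t-test, 3019 with array weights and 903 to 1099 without 1 array. For CEBPA_V314VW against empty vector they numbered 437, and 79, 739 and 283 to 344. For both mutations against CSF3R_T618I they numbered 355, and 4, 579 and 218 to 279, with 233 without both C arrays and 149 in the compared groups only. The methods' t-test gave 459 in place of 1211 for both mutations against empty vector, 519 in place of 1476 against CEBPA_V314VW and 1219 in place of 2373 between the single mutations, where array weights gave 3978. The interaction had 72 calls, 135 with array weights and 41 to 59 without 1 array. With the compared groups only, Socs2 with CSF3R_T618I had adjusted p = 0.08. Array weights brought Socs1 with CSF3R_T618I past the threshold (adjusted p = 0.0372).

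Leaving out 1 array at a time gave 2 to 3 members called with CSF3R_T618I and with both mutations against empty vector, and 26 to 29 of the 56 pair tests past the threshold. Over all probe sets, arrays of different groups with the same letter did not as a whole deviate together (18 pairs, 4 with r above 0.1, median r -0.01). This cannot exclude a shared deviation of single genes. The C arrays of CSF3R_T618I and of both mutations, which stood apart, had r = 0.16 with each other. They also had the highest background control means, 5.25 and 5.27. Arrays of different letters reached r = 0.35. For Socs1, array A read highest in every group, at 6.34 with empty vector and 6.88 with CSF3R_T618I. It read 6.76 with CEBPA_V314VW and 7.12 with both mutations. With the letter as replicate block, Socs1 passed with CSF3R_T618I (adjusted p = 0.016) and when CSF3R_T618I was added to CEBPA_V314VW (adjusted p = 0.0267), and 0 pair tests passed, since 64 arrangements cannot give a p below 0.03125. Median centring and quantile normalisation moved the median of all probe sets by at most 0.026. Each member had 1 named probe set, so no other could be compared.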
